A study of Aegilops tauschii x Triticum turgidum and Aegilops tauschii and Triticum turgidum subsp. durum with 18 samples.

Results

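The parents of a synthetic hexaploid wheat were compared with each other: the tetraploid Triticum turgidum cultivar Joyau and the diploid goat grass Aegilops tauschii ssp. strangulata accession 36, here Ae36. By the sample descriptions, 2 arrays of Joyau and 2 arrays of Ae36 entered the comparison, 4 of the 18 arrays of the series. The study set synthetic hexaploids against these parents, against equal mixes of parental RNA and against the natural hexaploid Triticum aestivum cultivar Courtot, to follow how transcript levels change when wheat genomes are joined. RNA came from whole untreated plants of 40 days, grown in 20 cm pots at 24 °C and 98% hygrometry under a 16 h photoperiod of 10000 lux. It was hybridised to Affymetrix GeneChip Wheat Genome arrays. The labels call the arrays of each parent biological replicates, without saying how many plants made up a sample. They also give every sample the genotype hexaploid, which goes against the descriptions of both parents, so the groups rest on the descriptions. Of the other groups, 4 are used below. They are Ae. tauschii ssp. tauschii accession 54 (Ae54), an equal mix of Joyau and Ae36 RNA (mix36), the selfed generation 0 of the Joyau by Ae36 hybrid (S0_36), and Courtot, with 2 arrays each. One Ae54 array carries the hybrid in its organism field and the name of an RNA mix in its extract field, against its description.

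Tetraploid wheat carries the A and B genomes and Ae. tauschii carries the D genome. Bread wheat arose when these genomes came together in a hexaploid, so most of its genes exist as copies from each genome, called homoeologs. The probes of this array were designed mainly from bread wheat transcripts, and a probe set may match the copy of one genome better than that of another. The signal of a probe set in Joyau and in Ae36 therefore reflects both the abundance of a transcript and its match to the probes. In these arrays the amount of a transcript and its match to the probes cannot be told apart.

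Values are log2 expression values that the authors made with GCRMA, a method that corrects each probe's background by its sequence. It holds probe sets without signal near a floor, so a difference measured against a parent near that floor may understate the ratio. Of 61179 probe sets other than array controls, 18189 (29.7%) reached 5 on at least 2 of the 18 arrays and were tested. A probe set was called when limma's adjusted p was under 0.05. Each SE and interval uses a spread pooled over all 9 groups of the series, not only the arrays of the parents. Array medians ran from 2.88 to 3.04. Joyau replicates 1 and 2 had 13924 and 13050 probe sets at 5 or more, and Ae36 replicates 1 and 2 had 12822 and 11895.

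Ae36 replicate 2 stood apart in its hybridisation controls, transcripts of bacterial and phage genes added to the samples. Their median was 12.09 there, 10.004 on Ae36 replicate 1, 9.34 and 9.90 on the Joyau arrays and 8.66 to 10.43 on the other 14 arrays. The labels give 40 µg of RNA for each Joyau array and 20 µg for each Ae36 array, so within these 4 arrays RNA amount and species cannot be told apart. The mix36, S0_36 and Courtot arrays are also labelled 40 µg. Comparing them with Ae36, as is done below, sets 40 µg against 20 µg, unlike comparing them with Joyau. The Ae54 arrays, labelled 40 µg and 20 µg, had an Ae36 share, explained below, of 0.951 and 0.945. Over probe sets higher in Joyau it was 0.986 and 0.995, and over those higher in Ae36 it was 0.760 and 0.653. The effect of RNA amount was not tested. The array labelled 40 µg is the one with conflicting labels. Without Ae36 replicate 2, 10309 probe sets were called in place of 10839. Of these, 9567 were called in both fits, and all 9567 kept their sign.

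The tetraploid and the diploid differed at most of the probe sets tested. Of 18189, 10839 were called (59.6%), with 5865 higher in Joyau (32.2%) and 4974 lower (27.3%). A probe set can pass the filter through its higher parent alone. With the filter set on the other 14 arrays 10176 of 17361 were called (58.6%), and with no filter 13280 of 61179 (21.7%). The median Joyau minus Ae36 difference was 0.07, the quartiles were -0.86 and 1.30, and the outer 5% tails began at -3.63 and 4.20. Higher calls outnumbered lower ones on the deposited scale, with 54.1% of calls higher in Joyau. That order turned when the arrays were quantile normalised, which left 49.2% higher, or centred on their medians, which left 48.2%. Centring moved the median difference to -0.10. Without Ae36 replicate 2 the calls were nearly even, 5183 higher and 5126 lower, and the median was 0.0083. The median was 0.014 without Joyau replicate 1, 0.11 without Joyau replicate 2 and 0.15 without Ae36 replicate 1. A limma test against a difference of 1, a 2-fold change, was passed by 5836 probe sets (32.1%), of which 3341 were higher in Joyau and 2495 lower. The arrays of the parents did not overlap at 14280 probe sets (78.5%).

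The distance between the species was larger than the spread between replicates and larger than the distance between the diploids. The median absolute difference was 1.07 between the means of Joyau and Ae36, against 0.24 between the Joyau arrays and 0.37 between the Ae36 arrays. Between Ae36 and Ae54, both diploid, it was 0.40. Across the tested probe sets Pearson's r was 0.451 to 0.488 between a Joyau and an Ae36 array, 0.881 to 0.887 between an Ae36 and an Ae54 array, 0.970 within Joyau and 0.959 within Ae36. These correlations describe probe sets on shared arrays, which are not independent replicates.

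**Figure D1:**
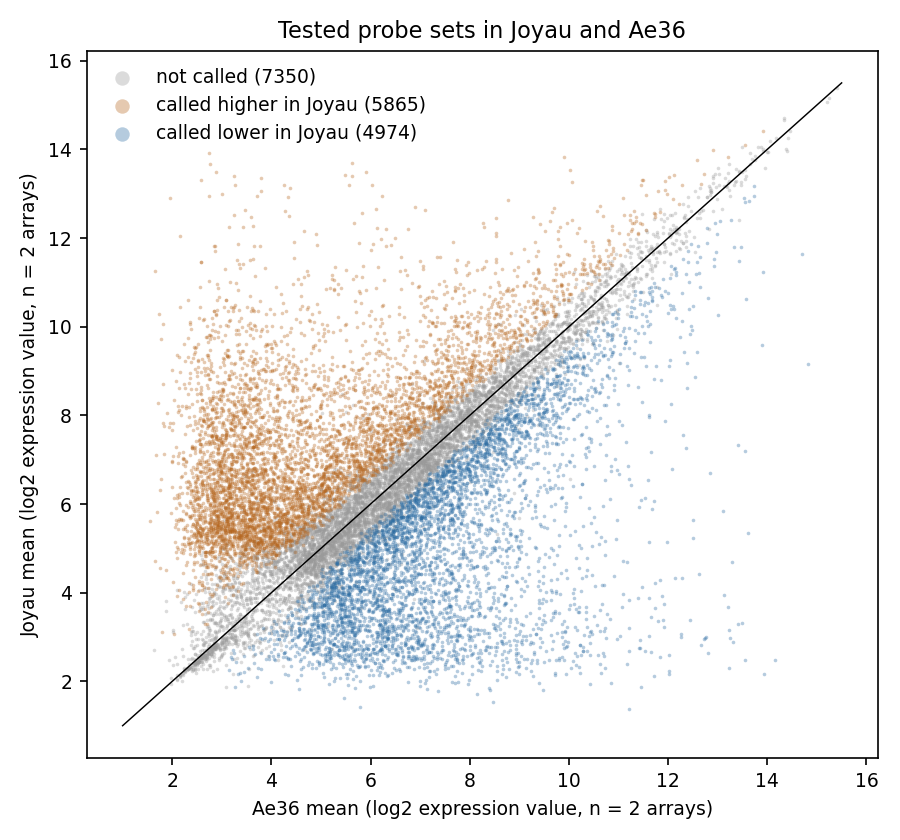
Each point is 1 of the 18189 tested probe sets, with its mean log2 expression value in Ae36 on the x axis and in Joyau on the y axis (n = 2 arrays each); the line marks equal values. The 5865 probe sets called higher in Joyau lie above the line, the 4974 called lower lie below it, and the bands along each axis are probe sets near the floor in 1 parent.

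Large differences went both ways. At 2 or more on the log2 scale, 3174 called probe sets were higher in Joyau and 2208 lower. At 5 or more the counts were 530 and 417. At 8 or more they were 45 and 55, and at 10 or more 7 and 10.

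Called differences were found at every level of signal and were most frequent among probe sets of low to middle signal. The classes were cut on the mean of the same 4 arrays, after the filter. A mean between 4 and 5 can come from 1 parent with signal and the other near the floor. A mean of 12 or more needs both parents high, which limits the difference. The order of the classes therefore follows in part from how they were cut. In the dimmest class, with a mean over the 4 arrays under 4, 38.6% of 1423 were called, with a median absolute difference of 0.86. With a mean between 4 and 5, 70.2% of 3783 probe sets were called, 1602 higher and 1054 lower in Joyau. Between 8 and 9, 55.9% of 1518 were called. From 10 to 12 the share was 46.8% of 714, and at 12 or more it was 28.2% of 174, with 24 higher and 25 lower. The median absolute difference fell from 1.69 in the class from 4 to 5 to 0.33 in the class at 12 or more.

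**Figure D2:**
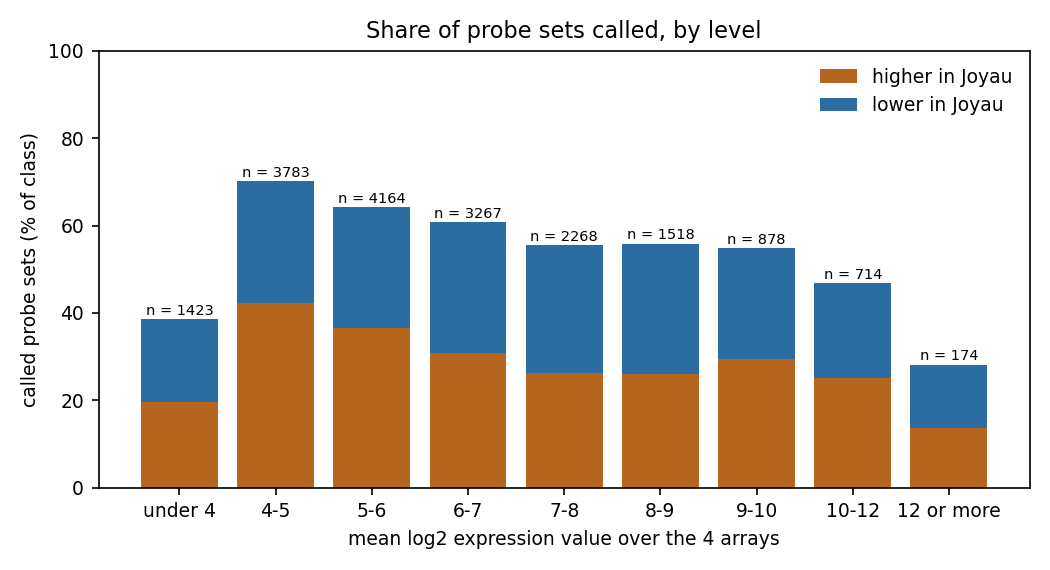
Bars show the percent of tested probe sets called at a limma adjusted p under 0.05 in each class of mean log2 expression value over the 4 arrays, split by direction, with the class size above each bar. The share is 38.6% under 4, 70.2% from 4 to 5 and 28.2% at 12 or more. Probe sets with a mean under 5 can pass the filter through their higher parent alone.

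Among bright probe sets, with a mean of 8 or more, 1712 of 3284 were called (52.1%), 859 higher and 853 lower in Joyau. For 100 of them (3.05%) the 95% interval of the difference lay within -0.5 to 0.5. This count was 0 with only the 4 arrays in the fit, 2 without either Joyau array, 19 without Ae36 replicate 1 and 28 without Ae36 replicate 2, fits with fewer arrays and wider intervals. Of the bright probe sets held this closely and carrying a gene symbol, 3 with the highest levels can be named. Gene symbols come from a probe table that gives 1 for 1273 probe sets and none for 60017, and most are LOC identifiers with no stated function.

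The photosynthesis gene petC, which encodes the Rieske iron-sulfur protein of the cytochrome b6f complex, was among the 3. It measured 13.72 and 13.79 in Joyau and 13.73 and 13.77 in Ae36, so the Joyau arrays bracketed the Ae36 arrays. Its difference was 0.01 ± 0.21 (SE, n = 2 arrays per parent), with an interval of -0.45 to 0.46. LOC100049018 measured 15.30 and 15.48 in Joyau and 15.35 and 15.47 in Ae36, with an interval of -0.39 to 0.35. It was the brightest probe set on each of the 18 arrays, and saturation was not tested, so its interval gives no measure of a steady transcript. LOC542913 measured 12.29 and 11.99 against 12.36 and 12.01, with an interval of -0.48 to 0.40. In all 3 genes the arrays of the parents overlapped. As a marker of green tissue petC was high on all 4 arrays. No probe set with a symbol belonged to the grain storage or the anther and pollen lists, so the share of those tissues was not tested.

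Of the 13 symbols in the probe table that name a protein, petC among them, 8 had a tested probe set, and 4 of these were called. CAT1 encodes a catalase, an enzyme that breaks down hydrogen peroxide in the peroxisome. Its values were 12.87 and 12.92 in Joyau and 11.00 and 11.18 in Ae36. The parents did not overlap, and Joyau was higher by 1.80 ± 0.24 (SE, limma adjusted p = 7.2e-05, n = 2 per parent). Both Ae54 arrays lay between the parents, with a mean of 11.92, as did mix36 at 12.21. S0_36 averaged 10.03, below the 2 parents and mix36.

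Carbon metabolism was covered by 2 genes. GAPN, the non-phosphorylating glyceraldehyde-3-phosphate dehydrogenase that makes NADPH in the cytosol, measured 10.15 and 10.22 in Joyau and 8.77 and 8.75 in Ae36. All Joyau values were above all Ae36 values, and the difference was 1.42 ± 0.31 (limma adjusted p = 0.00208). FBP, the fructose-1,6-bisphosphatase of sugar phosphate metabolism, measured 9.99 and 10.07 in Joyau and 9.83 and 10.45 in Ae36. The Ae36 arrays spread around the Joyau arrays, and the difference of -0.11 had an interval of -0.80 to 0.57, too wide to place it within a 0.5 band.

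TUBA, the alpha-tubulin of microtubules, was the gene of this kind that was lower in Joyau. It measured 10.85 and 10.76 there and 11.79 and 11.57 in Ae36, without overlap, a difference of -0.87 ± 0.24 (limma adjusted p = 0.00925). TBP1, the TATA-box binding protein of transcription initiation, measured 6.37 and 6.09 in Joyau and 5.61 and 4.27 in Ae36. The parents did not overlap and the difference was 1.29 ± 0.36 (limma adjusted p = 0.0101). The size depended on the Ae36 arrays: the difference was 0.62 without Ae36 replicate 2 (limma adjusted p = 0.0665) and 1.97 without Ae36 replicate 1. The call was also lost at a similar size without Joyau replicate 1, at 1.15 (limma adjusted p = 0.0607), and with only the 4 arrays in the fit, at 1.29 (limma adjusted p = 0.088).

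For the remaining 2 symbols the replicates of Ae36 differed by more than the parents' means. SAHH, the S-adenosylhomocysteine hydrolase that clears the by-product of methylation reactions, measured 11.94 and 11.80 in Joyau and 12.22 and 11.34 in Ae36 on 1 of its probe sets. The Ae36 values lay on either side of Joyau's, with a difference of 0.09 and an interval of -0.65 to 0.84. Its other probe set gave 0.03, with an interval of -0.82 to 0.88. XTH, a xyloglucan endotransglucosylase/hydrolase that remodels cell walls, measured 7.27 and 7.42 in Joyau and 5.66 and 6.91 in Ae36. Joyau was above both Ae36 arrays, and the difference of 1.06 had an interval of -0.58 to 2.70 (limma adjusted p = 0.241). Probe sets for COR410, TTHV, THI1.1, THI1.2 and PFK, and second probe sets for TUBA, FBP, petC and CAT1, stayed between 2.33 and 4.57 on the 4 arrays and were not tested.

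**Figure D3:**
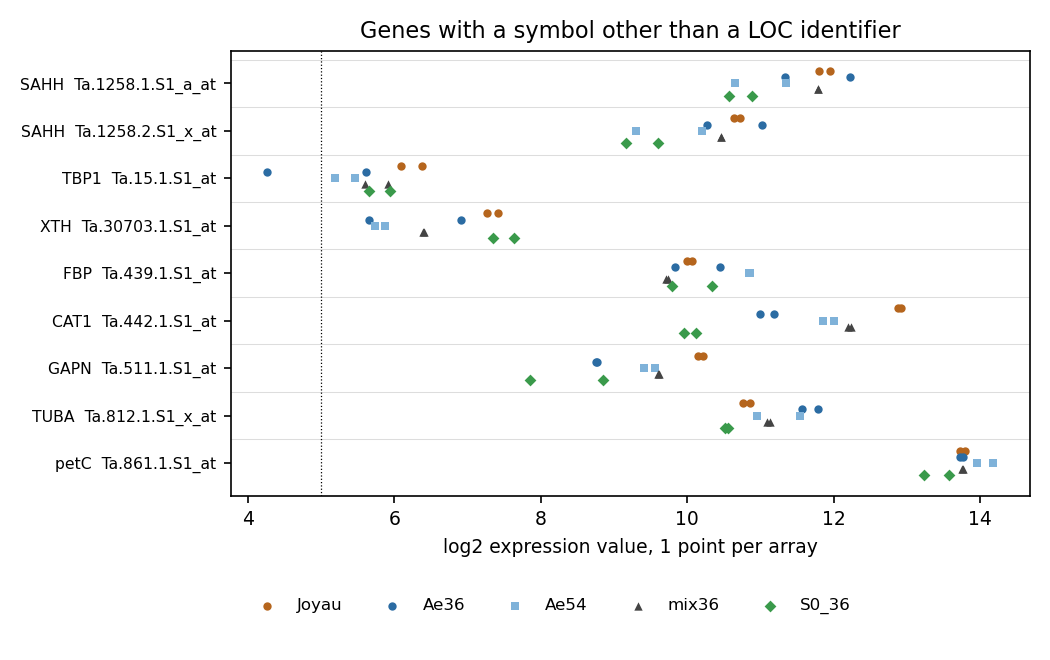
Each point is the log2 expression value of 1 array, for the tested probe sets whose gene symbol is not a LOC identifier; the dotted line marks 5. CAT1 at 12.87 and 12.92 in Joyau against 11.00 and 11.18 in Ae36 is the widest gap, TUBA is reversed, and petC, FBP and SAHH overlap between the parents.

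Probe sets with a gene symbol were called about as often as all probe sets, at 408 of 716 (57.0%), with 184 higher and 224 lower in Joyau. These 716 probe sets stand for 511 symbols. At 131 symbols all calls were higher in Joyau, and at 159 all were lower. The 12 largest called differences in each direction, 1 probe set per gene, were taken for description. Only probe sets with both arrays of 1 parent above both of the other were eligible. Separation of the parents at these genes therefore follows from the choice. Each gene is described by that probe set, and some had other probe sets called the opposite way, given below.

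LOC100037539, probe set Ta.1282.2.S1_at, had the largest excess in Joyau among probe sets with a symbol. It measured 13.27 and 13.34 in Joyau and 2.58 and 2.59 in Ae36, near the array medians. LOC543095, whose probe set Ta.1282.4.S1_at carries the same cluster number and may share transcripts with it, measured 10.09 and 9.95 against 3.97 and 3.81. In both genes Joyau was high and Ae36 near the floor, and LOC543095 differed by 6.13 ± 0.39 (limma adjusted p = 1.84e-07). Ae54 was higher than Ae36 at LOC100037539, with 5.44 and 5.66, and at the Ae36 level at LOC543095.

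LOC606363 measured 12.35 and 12.17 in Joyau and 3.97 and 2.91 in Ae36, a difference of 8.82 ± 0.48 (limma adjusted p = 6.61e-08). LOC542871 measured 13.21 and 13.18 against 5.48 and 5.66, a difference of 7.63 ± 0.22 (limma adjusted p = 1.03e-09). That neither gene overlapped between the parents follows from how the genes were chosen. LOC543231 had tight Joyau values, 13.23 and 13.04, but its Ae36 arrays read 6.01 and 2.74. Its difference of 8.76 ± 0.75 became 7.12 without Ae36 replicate 2 and 10.40 without Ae36 replicate 1. LOC542883 was split in the same way, with 10.62 and 10.77 in Joyau and 5.64 and 3.55 in Ae36. For both genes the Joyau arrays stayed above the Ae36 arrays by more than the gap between the Ae36 arrays.

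LOC543016 (Ta.3854.1.S1_at) behaved unlike the other 11 genes of this group in the hexaploids. It measured 9.85 and 9.80 in Joyau and 2.96 and 3.16 in Ae36, a difference of 6.76 ± 1.28 (limma adjusted p = 0.000883). That SE is pooled over all groups, whereas the SD was 0.033 between the Joyau arrays and 0.14 between the Ae36 arrays. The mix36 arrays read 8.43 and 8.31. Both S0_36 arrays, at 2.82 and 2.84, and both Courtot arrays, at 2.83 and 2.77, lay at the Ae36 level. Those 11 genes were at 8.03 or more on every S0_36 array. Their Joyau minus Ae36 differences, at 1 probe set per gene, ran from 6.10 for LOC542883 to 10.72 for LOC100037539.

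Among the genes lower in Joyau, LOC542997 measured 2.73 and 2.90 in Joyau and 13.12 and 12.19 in Ae36. LOC543254 measured 3.79 and 3.57 against 13.10 and 13.30. Joyau was near the floor and Ae36 high in both, and the Ae54 means were close to Ae36, at 12.14 and 12.60. Courtot averaged 8.43 at LOC542997 and 12.26 at LOC543254. LOC780599 had the widest replicate gap of the 12, with 2.06 and 2.55 in Joyau and 9.92 and 11.52 in Ae36. Its difference was -8.41 ± 0.97 (limma adjusted p = 2.14e-05).

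LOC542898 and LOC606323 were high in Ae36 but not in the other accession. LOC542898 measured 3.34 and 3.42 in Joyau, 12.29 and 12.59 in Ae36, and 4.53 and 4.59 in Ae54. LOC606323 measured 3.01 and 3.03 in Joyau, 11.45 and 10.60 in Ae36, and 3.59 and 3.60 in Ae54. For both genes Ae36 stood above Ae54 without overlap, as it did above Joyau by the choice of genes. The differences from Joyau were -9.06 ± 0.25 (limma adjusted p = 6.93e-10) and -8.01 ± 0.34 (limma adjusted p = 1.05e-08). S0_36 carried both transcripts, with means of 11.38 and 11.49, whereas Courtot averaged 3.93 and 5.32.

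The remaining 7 genes lower in Joyau differed by 6.34 to 7.88. LOC100037518 measured 2.29 and 2.34 in Joyau and 10.26 and 10.14 in Ae36. LOC100037537 and LOC543420 had some signal in Joyau, with 4.97 and 5.49 at the first and 6.09 and 5.58 at the second, against 12.38 or more on every Ae36 array. By the choice of genes the parents did not overlap at any of the 7. Ae54 averaged 8.58 or more at each.

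**Figure D4:**
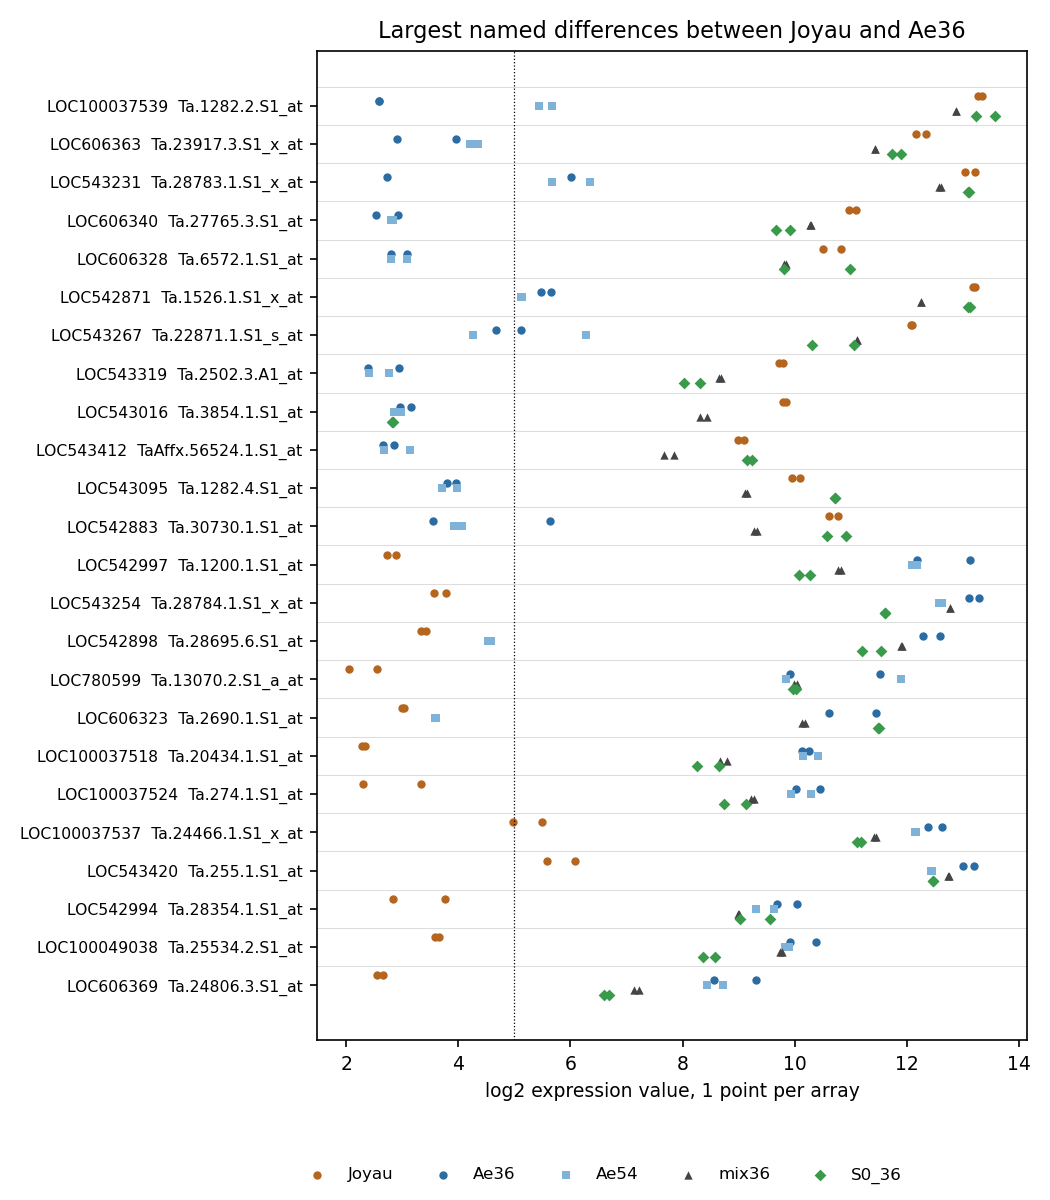
Each point is the log2 expression value of 1 array, for the 12 genes with a symbol most above and the 12 most below Ae36 in Joyau; the dotted line marks 5. In every row both arrays of one parent lie above both arrays of the other, as the choice of genes required. At LOC543016 the S0_36 arrays (2.82 and 2.84) lie with Ae36, and at LOC542898 and LOC606323 the Ae54 arrays lie at 4.59 or less, with Joyau.

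The largest differences of all lay in probe sets without a gene symbol, named here after their values were seen. Ta.27457.1.S1_x_at measured 13.93 on both Joyau arrays and 2.98 and 2.49 on the Ae36 arrays. Ta.13207.1.S1_x_at measured 2.50 and 2.47 in Joyau and 14.15 and 14.17 in Ae36, and Ae54 was as high, at 14.31 and 14.19. Ta.26910.1.S1_at measured 2.16 and 2.19 in Joyau and 14.11 and 13.74 in Ae36. In that last probe set both Ae54 arrays were at 2.20, S0_36 was at 11.54 and 10.55, and both Courtot arrays were at 2.15, so it was high in the Ae36 plants, their mix and their hybrid alone among the 6 groups described here.

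Several genes had probe sets that went opposite ways. Of 146 symbols with 2 or more tested probe sets, 20 had every probe set called higher in Joyau, 26 had every one called lower, 46 had some called in 1 direction and 38 had none called. At 16 symbols (11.0%) at least 1 probe set was called in each direction. Over 2832 cluster numbers in the probe set names with 2 or more tested probe sets, 350 (12.4%) had calls in both directions. Probe sets with the same symbol are not counted as separate genes, though each may match a different copy of the gene better.

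LOC606369 had 4 tested probe sets, all called. Ta.24806.2.S1_at measured 4.74 and 4.82 in Joyau and 2.08 and 2.11 in Ae36, and was higher in Joyau by 2.68. Ta.24806.3.S1_at measured 2.55 and 2.66 in Joyau and 9.32 and 8.56 in Ae36, and was lower by 6.34 ± 0.29. Each was near the floor in 1 parent, and the parent differed. In S0_36 both had signal, at 6.72 and 6.39 for Ta.24806.2.S1_at and 6.70 and 6.60 for Ta.24806.3.S1_at.

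LOC543319 had 5 tested probe sets and covered the whole range. Ta.2502.3.A1_at measured 9.72 and 9.80 in Joyau and 2.40 and 2.95 in Ae36. Ta.2502.2.A1_x_at measured 8.68 and 8.69 in Joyau and 11.48 and 10.91 in Ae36, a difference of -2.51. Ta.2502.1.S1_a_at measured 12.26 and 12.03 in Joyau and 12.31 and 12.01 in Ae36, a difference of -0.02, and its parents overlapped. LOC543111 had 2 probe sets higher in Joyau by 5.17 and 4.83 and another lower by 2.96. At this gene Ta.22794.1.S1_at measured 9.52 and 8.86 in Joyau, 4.00 and 4.03 in Ae36, and 4.00 and 5.56 in Courtot. At LOC780602 probe set Ta.5937.2.S1_at measured 2.60 and 2.53 in Joyau and 7.19 and 7.33 in Ae36, while Ta.28514.1.A1_at was higher in Joyau by 2.40. LOC606328 differed by 7.72 at Ta.6572.1.S1_at and by -7.31 at Ta.6572.2.S1_at, while Ta.6572.1.S1_a_at was not called. LOC606340 and LOC543412, also among the largest differences higher in Joyau, had probe sets called both ways. The lowest differences were -1.47 at LOC606340 and -0.61 at LOC543412.

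Probe sets present in 1 parent and near the floor in the other were picked out for that contrast. At 502 probe sets both Joyau arrays were at 8 or more and both Ae36 arrays under 5, and at 382 the reverse held. All of them were called, which follows from how they were chosen. Among the first set, 24 probe sets carry 23 symbols, and among the second, 23 carry 19 symbols. Without Ae36 replicate 2 the sets held 560 and 498 probe sets.

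Most probe sets of both sets had a similar level in the other Ae. tauschii accession. Of the 502 probe sets, 412 (82.1%) were also under 5 on both Ae54 arrays and 6 were at 8 or more on both. Of the 382, 263 (68.8%) were at 8 or more on both Ae54 arrays and 38 (9.95%) were under 5 on both. LOC542817 was a gene of the first set with signal in Ae54, at 7.19 and 7.76, against 3.96 and 4.12 in Ae36 and 9.00 and 8.41 in Joyau. LOC543196 was a gene of the second set without it, at 3.04 and 3.18, against 9.13 and 8.13 in Ae36 and 2.81 and 3.01 in Joyau. The difference between the sets was not tested. The same shares over all tested probe sets are not given here, so these counts are not read against a background.

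In the RNA mix, none of the 502 or the 382 was under 5 on both arrays. An equal mix lowers a transcript that is present in 1 parent by 1 on the log2 scale. Offsets here and in the hybrid and Courtot below are measured from the same high-parent arrays that chose the sets. That choice by itself favours lower values in the other groups. The 502 Joyau probe sets lay below their Joyau mean by a median of -1.15 in both mix36 arrays, with quartiles of -1.33 and -0.91 over the mean of the arrays. The 382 Ae36 probe sets lay at -0.82 and -0.83 from their Ae36 mean, with quartiles of -1.17 and -0.50. The gap between the sets narrowed to -1.23 against -1.08 with each array centred on its median, and to -1.13 against -0.99 without Ae36 replicate 2.

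In the S0_36 hybrid the order was the opposite. Its 502 Joyau probe sets lay at -1.02 and -0.95 from Joyau in the 2 arrays, with quartiles of -1.84 and -0.43. Its 382 Ae36 probe sets lay at -1.69 on both arrays, with quartiles of -2.26 and -1.09. Courtot, which descends from neither plant, had medians of -1.07 and -0.93 for the first set and -1.90 and -1.72 for the second. Under 5 on both arrays were 18 of the 502 and 3 of the 382 in S0_36, and 31 and 23 in Courtot. LOC543016, described above, was among the 18, and LOC542898 and LOC543196 were among the 23. The additive level of S0_36 was not measured, and the equal mix is not a measure of it.

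**Figure D5:**
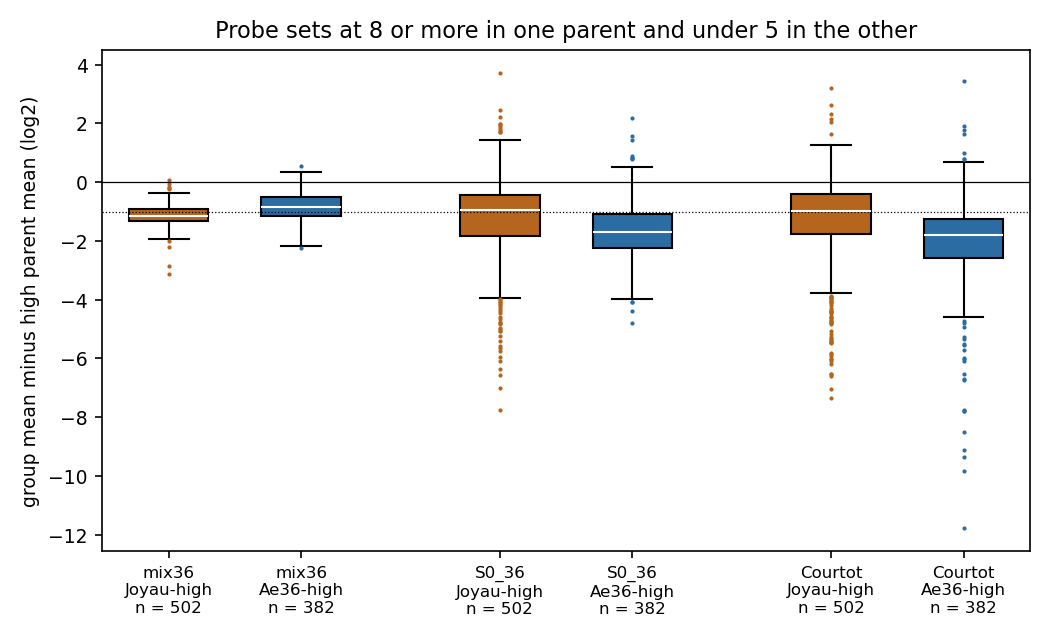
Boxes show, for the 502 probe sets at 8 or more in Joyau and under 5 in Ae36 and for the 382 with the reverse pattern, the mean log2 value of mix36, S0_36 or Courtot (n = 2 arrays each) minus the mean of the high parent. The white line is the median, the box spans the quartiles, whiskers reach 1.5 box lengths, points lie beyond, and the dotted line marks -1. The Joyau set is lower than the Ae36 set in mix36 (-1.15 against -0.83), and the Ae36 set is lower in S0_36 (-1.69 against -0.96).

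The position of other arrays between the parents was also taken over the 9045 probe sets called with a difference of 1 or more. Each value was placed on a linear scale on which the Joyau mean is 0 and the Ae36 mean is 1. The median of this Ae36 share was 0.553 on both mix36 arrays and 0.379 and 0.382 on the S0_36 arrays. It was 0.951 and 0.945 on the Ae54 arrays and 0.414 and 0.373 on the Courtot arrays. In all 4 groups the share was larger over the probe sets higher in Joyau than over those higher in Ae36. The same Joyau and Ae36 arrays chose these probe sets and set the scale. That choice by itself favours this order, so the order is not read as a trait of the groups. For the 5037 higher in Joyau the share averaged 0.591 in mix36, 0.545 in S0_36, 0.990 in Ae54 and 0.559 in Courtot. For the 4008 higher in Ae36 it averaged 0.469 in mix36, 0.233 in S0_36, 0.707 in Ae54 and 0.247 in Courtot.

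The wheat control probe sets of the array, which stayed out of the tests, show how signal ran along a transcript. Sucrose synthase, an enzyme that cleaves sucrose in growing tissue, measured 7.87 and 7.76 in Joyau and 9.88 and 9.36 in Ae36 at its 3′ probe set. At its 5′ probe set it measured 4.30 and 3.70 against 4.09 and 4.45. Ubiquitin, the tag of protein turnover, measured 10.001 and 9.82 against 11.28 and 11.02 at the 3′ end and 13.30 and 13.25 against 13.02 and 12.89 at the 5′ end. Both genes were thus higher in Ae36 at the 3′ end. At the 5′ end ubiquitin was higher in Joyau. Sucrose synthase was under 5 on all 4 arrays there, so its overlap shows no contrast by position. At the middle probe sets sucrose synthase measured 6.87 and 6.35 in Joyau and 8.24 and 8.28 in Ae36. Ubiquitin overlapped there, with 11.31 and 11.54 against 11.53 and 11.47. The G-6-PDH control of the pentose phosphate pathway was higher in Ae36 at all 3 positions, with 5.09 and 5.14 against 7.62 and 7.00 at the 3′ end. Of 25 wheat controls, 16 were under 5 on all 4 arrays. The part of RNA quality or probe position in the called differences was not tested.

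The share of calls differed between classes of probe set, which was not tested. Probe sets with the plain suffix, designed to match 1 transcript, were called at 61.8% of 11074, with 56.5% of calls higher in Joyau and a median difference of 0.16. Those ending in _a_at were called at 51.9% of 2440, and 48.7% of their calls were higher in Joyau. The shares were 52.9% of 1420 for _s_at and 60.8% of 3255 for _x_at, types that may match several transcripts, with 51.5% and 50.4% of calls higher. Probe sets named TaAffx were called at 56.2% of 4176, with 61.0% of calls higher in Joyau, against 60.6% of 14012 and 52.2% for those named Ta.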

How the data were processed

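Per the submitters' processing notes, the authors used GCRMA to turn probe intensities into the deposited log2 expression values. The version of GCRMA is not given in the sources used here. Arrays were grouped by their descriptions, and no column was left without a sample. After leaving out 111 control probe sets, probe sets reaching 5 on 2 or more of the arrays were kept for testing. One mean for each of 9 groups was fitted with limma 3.58.1 in R 4.3.3 over 16 samples, the near-identical arrays of each RNA mix being averaged to 1 sample. This gave 7 residual and 3.44 prior degrees of freedom. Tests were two-sided with Benjamini-Hochberg adjustment over all 18189 probe sets; treat tested against a difference of 1. Named genes included the 12 largest calls in each direction with 1 symbol. These needed an absolute difference of 1 or more and no overlap between the parents' arrays. Also named were every tested symbol that is not a LOC identifier and the 3 brightest held genes. LOC542817, LOC543196 and genes with opposite probe sets were picked as examples after their values were seen. The members and lists were chosen with earlier results of these data known. Of 24 gene lists, matched by symbol, 6 had a tested gene, all named above. The scripts were tested on simulated data. The number of arrays limits the precision, and p-values measure only the spread between these arrays.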

Additional observations from a re-analysis of the deposited data

How the results depend on the processing

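The Joyau and Ae36 arrays share replicate numbers, but the labels name no shared batch, and same-numbered arrays deviated together with r = 0.076. A fit with a replicate block called 10973 probe sets. Using only the 4 arrays gave 8982 calls, array weights 9619, separate mix arrays 11724, and the fits without 1 array 9399 to 10309. Only probe sets ending in plain _at, a choice made after seeing the data, gave 6845 calls among fewer tested, 3866 higher and 2979 lower in Joyau. The median difference was -0.028 after quantile normalisation, -0.10 after centring, -0.058 without the filter and 0.16 for plain _at. The count of bright probe sets held within 0.5 was the most sensitive: 0 with only the 4 arrays, 11 with array weights, 46 for plain _at, 189 with an intensity trend, 243 with separate mix arrays, 289 without the filter, and 2 to 28 without 1 array; the cause was not tested. The Ae36 share of mix36 and S0_36 was 0.567 and 0.378 at differences of 3 or more, 0.591 and 0.545 where Joyau was higher, 0.469 and 0.233 where Ae36 was higher, 0.541 and 0.344 after quantile normalisation and 0.532 and 0.335 after centring. Over 35 named results and 478 alternative values, 475 kept their side of the threshold. None of the 28 called results changed sign; of the 7 not called, 6 changed sign in 15 of these values, all still not called. The 3 lost calls were all TBP1: 1.29 (adjusted p = 0.088) with only the 4 arrays, 1.15 (0.0607) without Joyau replicate 1 and 0.62 (0.0665) without Ae36 replicate 2 (limma).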
